A study of Mus musculus with 2 samples.

Results

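Pyruvate dehydrogenase is the mitochondrial complex that turns pyruvate into acetyl-CoA, and here its subunits and the kinases and phosphatases that switch it were followed as 10 genes, chosen by name: Pdk1, Pdk2, Pdk3, Pdk4, Pdp1, Pdp2, Pdha1, Pdhb, Dlat and Pdhx. They are 10 of the 34740 gene names on the array and carry 17 of its 55681 probes. The mice were CD2F1/Slc males, 11 weeks old, and total RNA of their skeletal muscle was read by 1-colour microarray. The control array holds muscle of the PBS-injected group (100 µL), and the C26 array holds muscle of the group given 1000000 C26 colon carcinoma cells in 100 µL of PBS under the skin of the flank, a model of cancer cachexia. The labels name no particular muscle, no interval since the injection and no feeding state, and do not say whether an array holds 1 mouse or several. There is 1 array per group, so no test was possible, no p-value is given, and every value describes this pair of arrays.

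As background, the pyruvate dehydrogenase kinases phosphorylate the alpha subunit of the complex's first enzyme and thereby inactivate it, and the pyruvate dehydrogenase phosphatases remove that phosphate. With the complex off, pyruvate is spared for lactate, alanine or glucose synthesis and muscle burns more fat, which is the usual state in fasting. Of the kinases, Pdk4 is known for its induction by fasting, glucocorticoids, FoxO factors and PPARs, whereas Pdk1 is known as a hypoxia-responsive gene.

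The kinase Pdk4 was the member that differed most. Its 1 probe gave a processed signal of 9346 in control muscle and 42424 in C26 muscle. After each array was scaled to its 75th percentile, this was 4.77-fold higher in the C26 array, a log2 ratio of 2.26 with a scanner error of 0.20. The scanner error is the software's own estimate for a spot and covers spot measurement alone. Of the 10 members, 1 passed 2-fold upward in C26 and 0 downward, beside 1.25% and 1.15% of the 19668 measured genes. At 1.5-fold the counts of members were again 1 and 0, beside 4.37% and 4.83%. A gene counted as measured where its brightest probe stood well above background in both samples, which held for all 10 members. The other 9 members had log2 ratios between -0.43 and 0.39, with a median of -0.19, against a median of 0.04 for all measured genes.

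The part of the Pdk4 probe shown here identifies what was read for that result. The probe lies at chr6:5433441-5433500 (mm9, the build of the files), on the minus strand, and is listed under the RefSeq transcript of Pdk4. A pair of overlapping Pdhb probes are shown beside it, because their ratios cannot count as independent readings. Only 30 bases of each 60-base probe are given, 5′ to 3′, and capitals mark the 15 bases that the Pdhb probes share.
Pdk4 probe, first 30 bases: tatgaacccatgggagactttaaactcttg
Pdhb probe at chr14:8998548-8998607, last 30 bases: ctaagaagtatattaTCTACATTTGCTGTT
Pdhb probe at chr14:8998505-8998562, first 30 bases: TCTACATTTGCTGTTtaattgttttgataa

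**Figure D1:**
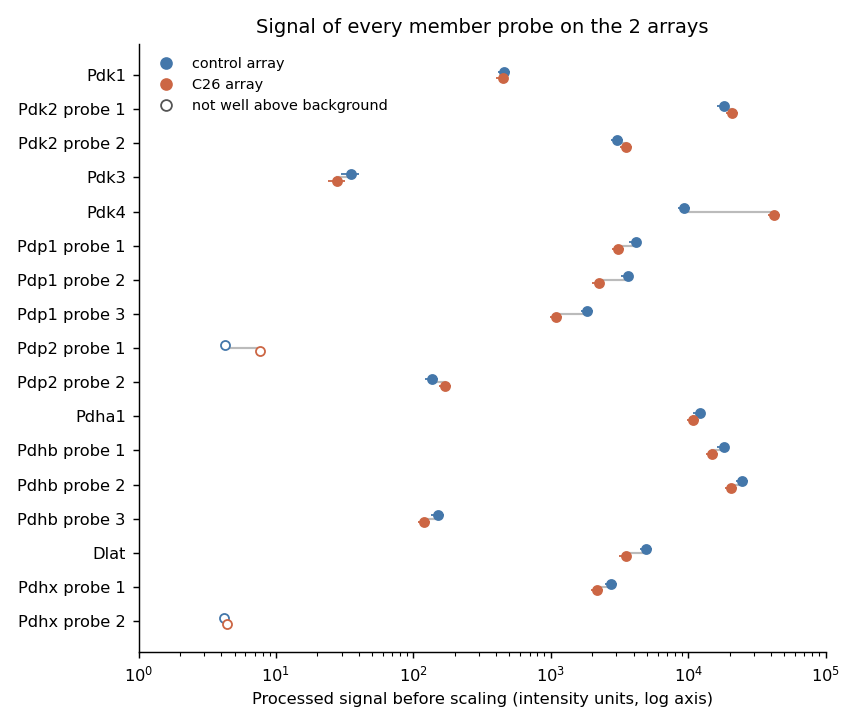
Processed signal (intensity units, log axis) of each of the 17 member probes on the control array and the C26 array, with the scanner error of the signal as bars for the 15 probes well above background on both arrays. Probes of a gene are numbered by genome position. Pdk4 has the widest gap, 9346 against 42424, and the 2 open pairs are not well above background.

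The other kinases did not share the size of the Pdk4 difference. Pdk2, the kinase found in most tissues, had 2 probes with signals of 18078 and 3030 in control muscle and 20990 and 3541 in C26 muscle. Both probes were higher in the C26 array by about the same amount, with log2 ratios of 0.29 and 0.30 (error 0.20 each), or 1.22-fold and 1.23-fold. The first lies at chr11:94887669-94887728 under the RefSeq transcript and the second at chr11:94887980-94888039 under a GenBank cDNA, both on the minus strand. With 6 other ways of scaling or background correction, the ratio of the first, brighter probe lay between 0.17 and 0.26. It was smaller than the scanner error with quantile scaling, with loess and with the deposited values. The deposited values nearly repeat quantile scaling (0.1689 against 0.1687 here), so they are hardly a separate setting.

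Pdk1 had a signal of 457 in control and 446 in C26 muscle, at chr2:71739688-71739747 on the plus strand. Its log2 ratio was 0.04 (error 0.20), and the sign turned below 0 with median scaling and with the 75th percentile taken over probes well above background. Pdk3, a kinase usually described in testis, brain and kidney, was dim, with a signal of 34.9 in control and 27.9 in C26 muscle at chrX:91010227-91010286. Its log2 ratio of -0.25 was smaller than its scanner error of 0.30. In log2 terms the Pdk4 ratio exceeded that of Pdk1 by 2.22, that of Pdk2 by 1.97 and that of Pdk3 by 2.50. These are differences between ratios; the signals of different probes cannot be compared as levels, so which kinase was the most abundant is not known from these arrays.

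**Figure D2:**
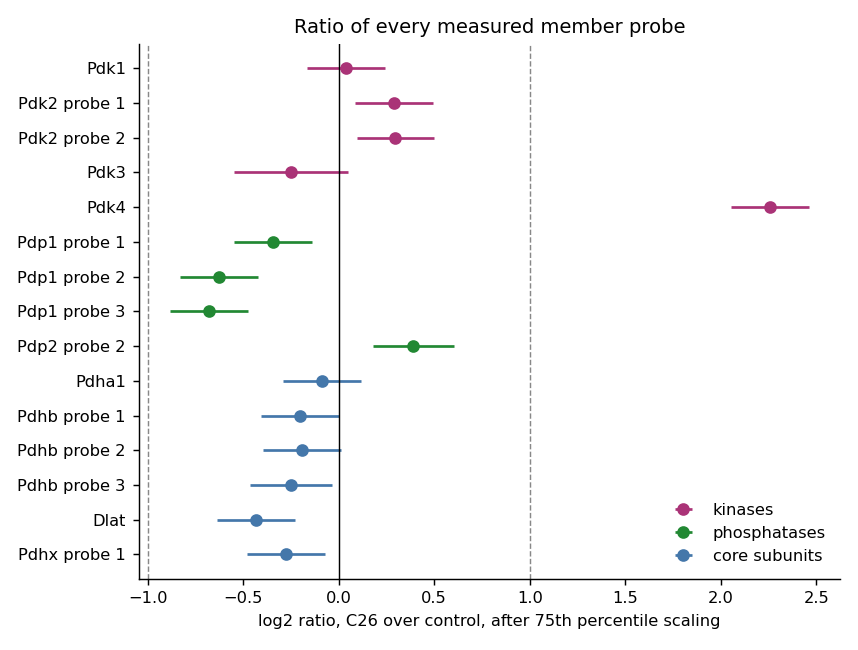
Log2 ratio of C26 over control for the 15 measured member probes after 75th percentile scaling, coloured by role, with the scanner error as bars and dashed lines at 2-fold. Pdk4 at 2.26 lies past the line, and all 6 probes of core subunits and all 3 probes of Pdp1 lie below 0.

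The position of Pdk4 was also high among genes of like brightness. It ranked 22 from the top of the 19668 measured genes, and its rank lay between 6 and 23 with the 6 other ways of scaling or background correction. Among the 1967 brightest genes by mean signal, 0.712% passed 2-fold upward and 0.203% downward, and 0 had a log2 ratio above that of Pdk4, with these other settings too. Its own log2 ratio lay between 2.11 and 2.21 under those settings. In bulk muscle, a higher share of cells that express a gene and more RNA per cell cannot be told apart.

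**Figure D3:**
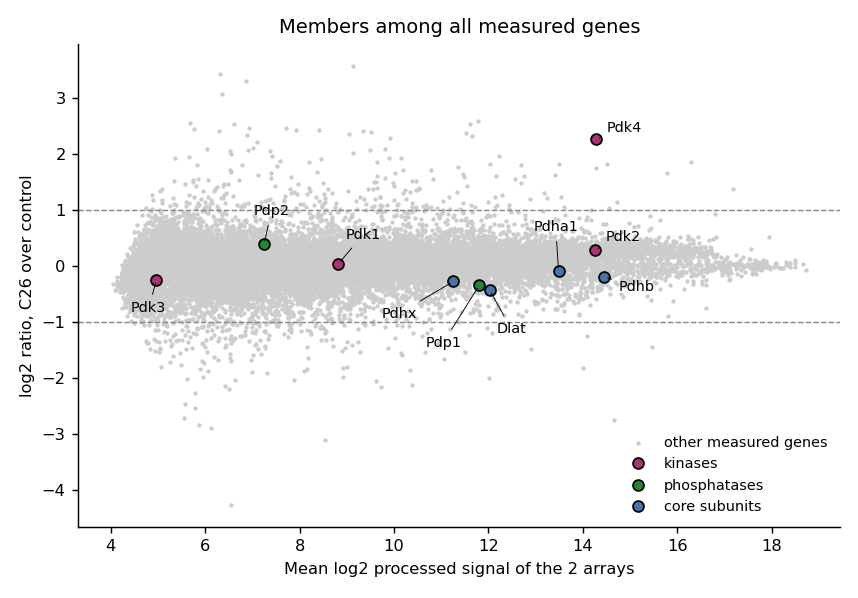
Log2 ratio of C26 over control against the mean log2 processed signal of the 2 arrays, 1 grey point per measured gene, with the 10 members in colour by role and dashed lines at 2-fold. Pdk4 stands alone above the upper line among the members, at 2.26, while the other 9 lie between -0.43 and 0.39.

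The phosphatases, which reactivate the complex, had ratios of opposite sign. Pdp1, the calcium-sensitive catalytic subunit known from muscle, was read by 3 probes on chromosome 4, all on the minus strand. The probe at chr4:11885487-11885546 gave 4144 in control and 3102 in C26 muscle, a log2 ratio of -0.35 (error 0.20). The probe at chr4:11887075-11887134 gave 3617 and 2227, a log2 ratio of -0.63 (error 0.20). The probe at chr4:11887655-11887714 gave 1830 and 1089, a log2 ratio of -0.68 (error 0.20).

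Thus all 3 Pdp1 probes were lower in the C26 array, by 1.27-fold, 1.54-fold and 1.60-fold, and with the 6 other scalings they stayed between -0.75 and -0.39. Their mean log2 ratio was -0.55 with a standard deviation of 0.18 between the 3 probes, which share 1 RNA sample and are not replicates. The brightest probe, which stands for the gene in counts, gave the smallest difference of the 3, so that 2 probes but not the gene itself were past 1.5-fold. Pdp2, the other catalytic subunit, had a signal of 136 in control and 170 in C26 muscle at chr8:107120490-107120549, a log2 ratio of 0.39 (error 0.21), or 1.31-fold higher. A second Pdp2 probe, at chr8:107118067-107118126, was not well above background on either array. The log2 ratio of Pdp2 exceeded that of Pdp1 by 0.74.

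The 4 core subunits were lower in the C26 array by small amounts. By brightest probe, Dlat, the acetyltransferase that forms the core of the complex, had the lowest ratio of the 10 members. The Pdp1 probes with log2 ratios of -0.63 and -0.68 were lower. Dlat had a signal of 4963 in control and 3502 in C26 muscle at chr9:50442953-50443012. This is a log2 ratio of -0.43 (error 0.20), or 1.35-fold lower, and 8.44% of the measured genes had a lower ratio. Pdhx, which holds the dihydrolipoamide dehydrogenase on that core, had 2766 and 2172 at chr2:102861330-102861389, a log2 ratio of -0.28 (error 0.20). Its second probe, listed under an Ensembl transcript at chr2:102879784-102879843, was not well above background on either array.

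Pdhb, the beta subunit of the first enzyme, had 24631 in control and 20490 in C26 muscle with its brightest probe, a log2 ratio of -0.19 (error 0.20). The probe that overlaps it by 15 bases gave 18146 and 14992, a ratio of -0.20, and a dim probe at chr14:9003605-9003664, listed under a GenBank cDNA, gave 150 and 120, a ratio of -0.25 (error 0.21). Pdha1, the alpha subunit that the kinases phosphorylate, had 12141 and 10853 at chrX:156560665-156560724, a log2 ratio of -0.09 (error 0.20), less than its scanner error.

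All 4 core genes lay below 0, beside 43.5% of the measured genes, although Pdha1 and Pdhb did so by less than their scanner error. The 6 measured probes of these genes, 3 of them of Pdhb, also lay below 0. Under the 6 other scalings these probes stayed between -0.53 and -0.08. The median over the 4 core genes was -0.23, against 0.16 for the 4 kinases, a difference of 0.40. Since Pdk4 is 1 of only 4 kinases, that median says little of it; Pdk4 itself stood 2.49 above the core median on the log2 scale. For comparison with these small ratios, the log2 ratio had a median standard deviation of 0.07 between copies over the 266 probes with 8 copies or more. This copy error, like the scanner error, leaves out the variation between mice, so whether the core subunits or Pdp1 differ between groups of mice is not known.

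**Figure D4:**
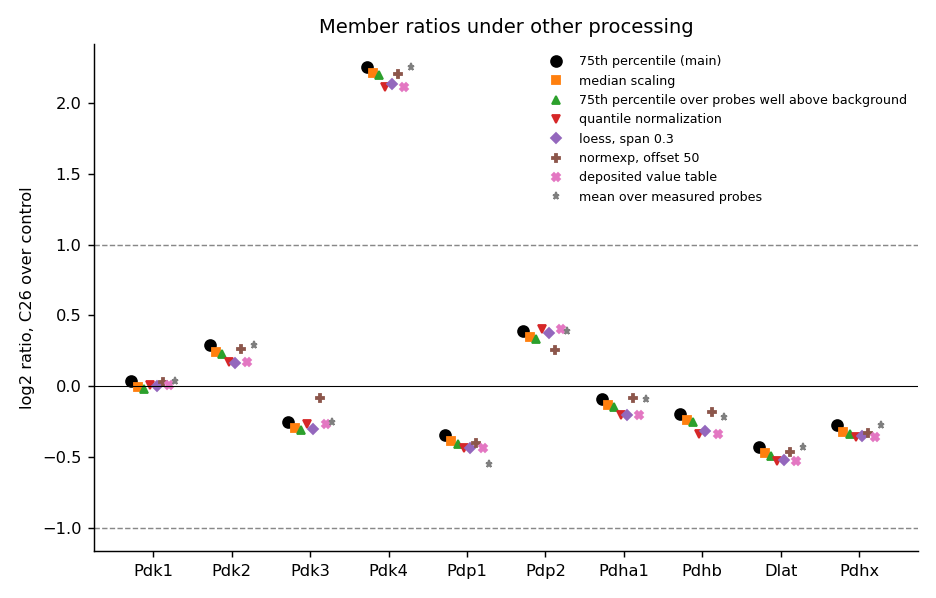
Log2 ratio of C26 over control of each member in the main setting and under 7 other ways of processing, with dashed lines at 2-fold. Pdk4 lies at 2.11 or above in each, Pdp1 moves to -0.55 with the mean of its probes, and Pdk1 crosses 0.

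Other genes that serve the complex showed no shared direction. The gene lists here and below were chosen with earlier results of these data known, so their counts are descriptions and not independent evidence. Of 10 listed partners and cofactor genes, 8 were measured, with a median log2 ratio of 0.08 (-0.05 with no filter on dim probes), and 0 were 2-fold higher or lower. Dld, the dihydrolipoamide dehydrogenase of the complex, had -0.15 (error 0.20). Lipt1, a lipoyltransferase, had the highest ratio, 0.43. Pdpr, the regulatory subunit of the phosphatase, gave 0.10 with its brightest probe and -0.14 with another.

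Genes that bring in pyruvate or use it otherwise were measured in all 15 cases, with a median of -0.16 and 0 past 2-fold in either direction; the median was 0.0087 over those with a signal of at least 100. Mpc1 and Mpc2, which together form the mitochondrial pyruvate carrier, had log2 ratios of -0.20 (error 0.20) and -0.16 (error 0.06). The highest was Gpt2, the mitochondrial alanine aminotransferase, at 0.60, and the lowest Slc16a7, a monocarboxylate transporter, at -0.54. In the citric acid cycle, which takes up the acetyl-CoA, 12 of 14 enzymes lay below 0, beside 43.5% of the measured genes. The median of the 14 was -0.11 (between -0.25 and -0.14 under the other scalings), with the lowest value, -0.32, for Idh3a. Citrate synthase, Cs, had -0.11. The core subunits thus lay in the range of the cycle's enzymes except for Dlat.

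Genes of fat oxidation and fasting, which share with Pdk4 a known response to fasting, had a median log2 ratio of 0.44 over 24 measured members. Of these, 7 passed 2-fold upward in C26 and 0 downward, beside 1.25% and 1.15% of all measured genes. In this list 22 lay above 0, as did 11103 of the 19668 measured genes. Because the list was chosen with earlier results known, these counts are no test of a fasting response. Acot1, an acyl-CoA thioesterase with close paralogs, had 2.42, Angptl4, an inhibitor of lipoprotein lipase, 1.31, and Ucp3, a mitochondrial carrier of muscle, 1.12 (error 0.20). Plin5 of lipid droplets had 1.04, and Plin2 was the lowest at -0.15.

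Among 16 listed regulators of the kinase genes, 15 were measured, with a median of 0.26 (0.15 with quantile scaling). Of these, 2 were at least 2-fold higher, beside 1.25% of all measured genes. Foxo1, a transcription factor known to act on Pdk4, had a signal of 1652 in control and 4885 in C26 muscle, a log2 ratio of 1.64 (error 0.20). Myc was the other, at 1.19 (error 0.15). Foxo3 passed the background limit only in C26 muscle, where it was at least 2.05-fold higher, counted from the background floor of the control array. Ppard had 0.41, Ppara 0.07 and the glucocorticoid receptor Nr3c1 0.15 (error 0.20 each), with a second Nr3c1 probe at 0.60. Ppargc1b, a coactivator of mitochondrial genes, was the lowest at -0.82.

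All 12 glucocorticoid target genes lay above 0, beside 11103 of the 19668 measured genes, and their median was 1.25. Of the 12, 7 were at least 2-fold higher, beside 1.25% of all measured genes. This list too was chosen with earlier results of these data known, so its counts are no test of a glucocorticoid response. Fkbp5, a chaperone, was the highest at 2.37. Per1 was the lowest at 0.20, and another of its probes gave -0.47. Hypoxia (HIF) targets had a median of 0.05 over 15 genes, with Egln3 at 1.02 and Pfkfb3, which promotes glycolysis, at -1.47. The hypoxia median has no settled direction, since it was -0.0058 with the 75th percentile over probes above background. Another Pfkfb3 probe gave -0.21. In all, 21 measured genes had a ratio above the 2.26 of Pdk4, which describes single ratios only. Fkbp5 and Acot1 were among them. So were the erythroid markers Alas2 at 2.31 and Slc4a1 at 2.43, and the neutrophil markers S100a8 and S100a9.

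**Figure D5:**
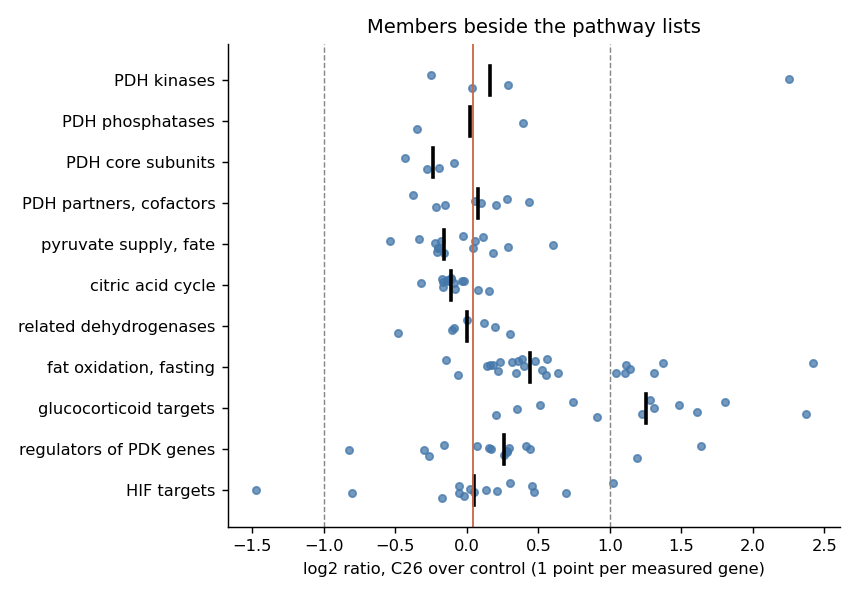
Log2 ratio of C26 over control, 1 point per measured gene, for the members by role and for 8 pathway lists. Black bars mark list medians, the vertical line the median of all measured genes (0.04) and dashed lines 2-fold. The glucocorticoid list has the highest median, 1.25, and the core subunits the lowest, -0.23.

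Markers of other cells also differed between the arrays. Of the 19668 measured genes, for comparison, 11103 lay above 0 and 8565 below, with 1.25% past 2-fold upward and 1.15% downward. The muscle label held, with 14 of 14 myofibre markers measured and a median log2 ratio of 0.05, whose sign turned with 2 of the other scalings. Adipocyte markers, from fat cells, which also express Pdk4, had a median of 0.35 with 8 of 10 above 0 and 0 past 2-fold, and their summed signal was 51816 in control and 66631 in C26 muscle. Such sums are of signals before scaling and weigh the brightest probes most. Here these were Fabp4, at 22734 in control and 28304 in C26 muscle, and Cfd, at 22367 and 30054. The defining adipocyte genes Adipoq and Plin1 had log2 ratios of 0.31 and -0.04, and the list ran from Lep at -0.66 to Cidea at 0.88. Erythroid markers were higher, with a median of 1.66 over 5 measured of 10 listed and summed signals of 343730 and 632520, while Epb42 did not pass the background limit on both arrays. Fibroblast markers were lower, with all 10 below 0, a median of -0.89 and summed signals of 239230 and 129050. The medians were -0.20 for macrophage, 0.18 for neutrophil, 0.38 for endothelial and 0.11 for epithelial or carcinoma markers; of the last, 5 of 10 were measured, and Epcam, Krt8, Krt20, Cdx2 and Vil1 were not. These medians cover unlike members. Of 6 measured neutrophil markers, S100a8 had 2.46 and S100a9 2.35, both above Pdk4, and Csf3r had -0.26. Of the 10 macrophage markers, Cd68 had -1.35 and Ms4a7 -1.29, and Mertk was the highest at 0.22. Of the 10 endothelial markers, 1 passed 2-fold upward, Cldn5, and Kdr was the lowest at 0.01. Another Kdr probe gave -0.63, and the sign of the Kdr ratio turned with 5 of the other scalings. The epithelial median was -0.18 and the neutrophil median -0.0092 with no filter on dim probes. The part of these shifts in the Pdk4 ratio was not tested.

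The sequence upstream of Pdk4 is shown because it is the member that differed. It covers the 250 bases before the start site, chr6:5496279-5496528 (GRCm38.p6, from RefSeq's table, not the build of the probes), on the minus strand, 5′ to 3′ along the gene.
Pdk4 upstream: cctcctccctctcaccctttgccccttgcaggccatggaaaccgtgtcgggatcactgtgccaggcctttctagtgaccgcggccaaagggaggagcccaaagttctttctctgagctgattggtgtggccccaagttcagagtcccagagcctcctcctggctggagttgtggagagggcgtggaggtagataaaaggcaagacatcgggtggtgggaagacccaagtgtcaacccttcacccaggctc

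On both strands of this window, 6 short motifs were searched: the FOXO motif GTAAACA, the insulin response type CAAAACA, the glucocorticoid receptor half-site AGAACA, the nuclear receptor half-site AAGGTCA, the hypoxia core ACGTG and the TATA box TATAAA. None of them is in the Pdk4 window, which says only that these letters are not within 250 bases upstream of the start. Among all 32851 upstream windows of that length, 3.17% held the FOXO motif, 5.56% the insulin response type, 16.1% the glucocorticoid half-site, 4.08% the nuclear receptor half-site, 16.6% the hypoxia core and 12.4% the TATA box. Of the 11 windows for 9 of the members, 1 held the glucocorticoid half-site, 1 of the 2 windows of Pdk1. The hypoxia core was in 4, namely 1 of the 2 windows of Pdk2 and the windows of Pdk3, Pdp2 and Pdhb. In the Pdk2 and Pdp2 windows that hold it, its matches on both strands overlap as CACGTG. The 4 windows with the hypoxia core were 60.8% to 67.6% G and C, against a median of 52.4% for all windows. Windows of like composition were not compared. A match here is a description of letters and not a binding site.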

How the data were processed

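The 2 arrays were 1-colour (Cy3) Agilent arrays, 1 per group, on 1 slide with the same scan time. Per the file headers, Agilent Feature Extraction 10.7.1.1 made the spot intensities, with background subtraction, spatial and multiplicative detrending and surrogates for low spots; the submitters' processing notes list version 9.5.1.1. A deposited table of normalized intensities, of a method not given in the sources used here, served as an alternative. Of its control column, 99.9% lay within 0.01 (log2) of quantile-normalized signals, so it is hardly separate from quantile scaling.

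Outlier spots (110 control, 91 C26) were dropped, spots of a probe averaged as log2, and each array's 75th percentile over 55680 probes subtracted (signals of 262 and 249, which adds 0.07 to each log2 ratio). Spots well above background made up 50.4% and 53.8%; none was saturated. A gene took its brightest probe. Names came from the reference table (GRCm38.p6) for 31381 probes and from the file for 24299. The scaling was tested on simulated data.

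All members are named, and from each list the genes past 2-fold and the extremes, with 11 genes chosen by name; Pdpr, Adipoq, Plin1 and the markers listed as not measured were added after their values were seen. Some listed genes are not reported here. Members and lists were chosen with earlier results of these data known. Alternatives were median scaling, the 75th percentile over probes above background, quantile, loess (span 0.3), normexp (offset 50), the deposited table, the mean of probes, filters and thresholds. Python 3.11.15, numpy 2.4.6, pandas 2.3.3, statsmodels 0.14.6, matplotlib 3.10.9, R 4.3.3 and limma 3.58.1 were used.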

Additional observations from a re-analysis of the deposited data

How the results depend on the processing

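The Pdk4 log2 ratio lay between 2.11 and 2.26 in every setting run, and the counts of members past 2-fold stayed at 1 higher and 0 lower, also at 1.5-fold and 3-fold. The kinase minus core difference was 0.52 with the stricter filter (signal at least 100), which drops Pdk3, against 0.40. Over all genes, 245 passed 2-fold upward and 226 downward in the main setting. Normexp gave 131 and 65, for which the cause was not tested. Counting dim probes too gave 1579 and 1316, and asking for a signal of 100 gave 158 and 89, which change the genes counted. A 1.5-fold limit gave 859 and 949, and a 3-fold limit 68 and 45. The share of higher among both was 52.0% in the main setting, 66.8% with normexp and 64.0% with the stricter filter. For single members and list medians, 191 values moved by less than the scanner error (members) or the copy error (medians) and 33 by more. Among members this was Pdp1 alone, at -0.55 with the mean of its probes; Pdk1, at 0.04, turned sign within its error. No paired analysis was possible because each group has 1 array. Precision is limited by the number of arrays, and for Pdk3 by its signal near background.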

Other observations

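The relatives of pyruvate dehydrogenase that use the same chemistry, the branched-chain and 2-oxoglutarate dehydrogenases, were measured in 7 of 9 listed genes. Their median log2 ratio was -0.0013 (between -0.099 and -0.046 under the other scalings), and 0 were past 2-fold. Bckdk, the kinase that inactivates the branched-chain complex as the Pdk kinases do theirs, had 0.20 (error 0.20), and its opposing phosphatase Ppm1k, the lowest of the list, had -0.48 (error 0.21). Bckdha, the subunit that Bckdk phosphorylates, was the highest at 0.30.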
